A study of Mus musculus with 12 samples.

Results

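RNA-seq libraries labelled as mouse liver were examined for 10 genes of antigen presentation and of lymphocytes: H2-Aa, H2-Ab1, H2-Eb1, Cd74, Ciita, Ptprc, Cd3e, Cd8a, Cd79a and Nkg7. They were chosen by symbol, as the rows with these names among the 35275 genes of the deposited expression table, and all 10 were found. The study set loss of hepatocyte nuclear factor 4 alpha (Hnf4a), a transcription factor of hepatocytes, against a high-fat diet, and asked how each changes liver gene expression. The 4 groups hold 3 libraries each, which the series describes as biological replicates: wild-type livers on vivarium chow (WT chow), wild-type livers on high-fat feeding (WT HFD), Hnf4a knockout livers on vivarium chow (KO chow) and Hnf4a knockout livers on high-fat feeding (KO HFD). Strain, sex, age, the time on the diet and the way Hnf4a was removed remain details not given in the sources used here. Levels are given as FPKM, in which a gene's fragment count is divided by its length and by the library's depth, so they can be set side by side between genes.

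MHC class II molecules hold peptides from engulfed material on the surface of dendritic cells, B cells and macrophages, where helper T cells read them. Each is a pair of an alpha and a beta chain that is escorted by the invariant chain Cd74, and the genes are switched on together by the coactivator Ciita, which acts through factors bound to a conserved set of promoter boxes. In liver the usual carriers are Kupffer cells, dendritic cells and B cells, while T and NK lymphocytes sit in the sinusoids among the hepatocytes. In bulk tissue, fewer cells of a type and less RNA per cell cannot be told apart.

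H2-Aa (ENSMUSG00000036594, the I-A alpha chain) lies on chromosome 17 at 34282744 to 34287827, minus strand, in the GRCm38 coordinates of the deposited table. H2-Ab1 (ENSMUSG00000073421, the I-A beta chain) lies beside it at 34263209 to 34269418, plus strand, 13325 bases away. H2-Eb1 (ENSMUSG00000060586, the I-E beta chain) follows at 34305877 to 34316199, plus strand, 18049 bases beyond H2-Aa. All 10 are annotated as protein-coding, and Ciita alone overlaps another gene: Dexi, on the opposite strand, reached 12.5 FPKM, and the strand setting of the counting was not given in the sources used here, so the low values of Ciita are uncertain.

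The promoters of the class II chains H2-Aa and H2-Eb1 are shown as a description of sequence. Their part in the near-fixed proportions of the class II genes, given further on, was not tested. The RefSeq promoter table (GRCm38.p6) holds 8 windows for 7 of the 10 genes, and none for H2-Ab1, Cd74 and Ciita. The stretches below run 5′ to 3′ on the gene's strand and end at the base before the RefSeq start, at chr17:34287824-34287964 on the minus strand for H2-Aa and at chr17:34305716-34305866 on the plus strand for H2-Eb1. Capitals mark GCAACT and TGATTGG, the latter holding the inverted CCAAT core known as the Y box of class II promoters.
H2-Aa: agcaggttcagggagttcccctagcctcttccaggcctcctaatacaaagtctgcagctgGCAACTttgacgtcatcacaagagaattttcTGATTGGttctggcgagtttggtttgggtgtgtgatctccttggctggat
H2-Eb1: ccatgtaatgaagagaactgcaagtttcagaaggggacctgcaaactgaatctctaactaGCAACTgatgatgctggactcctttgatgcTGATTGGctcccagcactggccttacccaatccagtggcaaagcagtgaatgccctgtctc
In H2-Aa the GCAACT begins 81 bases and the TGATTGG 50 bases before the start, with 25 bases between them. In H2-Eb1 they begin 91 and 61 bases before the start, with 24 bases between. These letters were picked after the sequences were seen. On either strand, TGATTGG occurs in 7.82% and GCAACT in 10.9% of the 32851 windows of the table, the 2 strings not overlapping each other. Both in this order on 1 strand, 5 to 40 bases apart, occur in 25 windows, which is 0.0761%. Besides H2-Aa and H2-Eb1, these include H2-Eb2, at a mean of only 0.0356 FPKM over the 12 libraries, and genes outside class II. The other 6 windows of the 10 genes, those of Ptprc, Cd3e, Cd8a, Cd79a and Nkg7, hold neither string. A match of letters is a description of the sequence and not a measured binding site.

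Depth was 15705196 to 20311766 reads on genes per library. Hnf4a was not lower in the libraries labelled KO: it was 130 to 158 FPKM in KO chow and 98.8 to 138 FPKM in KO HFD, against 116 to 133 FPKM in WT HFD and 0.0973 to 126 FPKM in WT chow. KO and WT therefore stand below for the labels only. A pair of WT chow libraries stood apart from the other 10. Albumin (Alb) was 11.9 FPKM in WT chow 3 and 7604 FPKM in WT chow 2, against 12811 to 41503 FPKM elsewhere, and the brown fat gene Ucp1 stood at 2339 FPKM in WT chow 3 and at 0 to 3.20 FPKM elsewhere. These values of WT chow 3 go against its label of liver, and whether a tissue or a column was exchanged was not tested. Tests that use WT chow are therefore given with all 12 libraries and with the 10 that remain without WT chow 2 and 3.

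The class II chains and Cd74 were well expressed in every library, and with limma on 12 or on 10 libraries no comparison of groups passed the threshold for any of them. H2-Aa read 20.7, 48.8 and 19.2 FPKM in WT chow 1 to 3, 26.8, 23.9 and 38.7 FPKM in WT HFD, 24.1, 31.5 and 11.3 FPKM in KO chow, and 40.3, 39.4 and 28.3 FPKM in KO HFD. H2-Ab1 read 20.5, 38.2 and 21.6 FPKM in WT chow, 27.1, 24.1 and 36.9 FPKM in WT HFD, 27.6, 34.3 and 10.4 FPKM in KO chow, and 41.5, 42.0 and 33.8 FPKM in KO HFD. The I-A pair thus had like levels and the same lowest library, KO chow 3, and in both genes the groups overlapped in every comparison. H2-Eb1 read 20.4, 58.2 and 26.0 FPKM in WT chow, 21.7, 25.8 and 37.7 FPKM in WT HFD, 20.8, 25.9 and 11.0 FPKM in KO chow, and 37.6, 37.8 and 29.6 FPKM in KO HFD. Every KO HFD library was above every KO chow library for H2-Eb1, and WT chow 2 was above all others. Cd74 (ENSMUSG00000024610, chromosome 18, 60803848 to 60812646, plus strand) read 46.3, 179 and 38.4 FPKM in WT chow, 51.4, 53.2 and 80.6 FPKM in WT HFD, 52.6, 69.8 and 25.2 FPKM in KO chow, and 87.5, 80.4 and 69.8 FPKM in KO HFD. Cd74 had the highest level of the 10 genes in every library, and its KO HFD and KO chow values met at 69.8 FPKM.

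**Figure D1:**
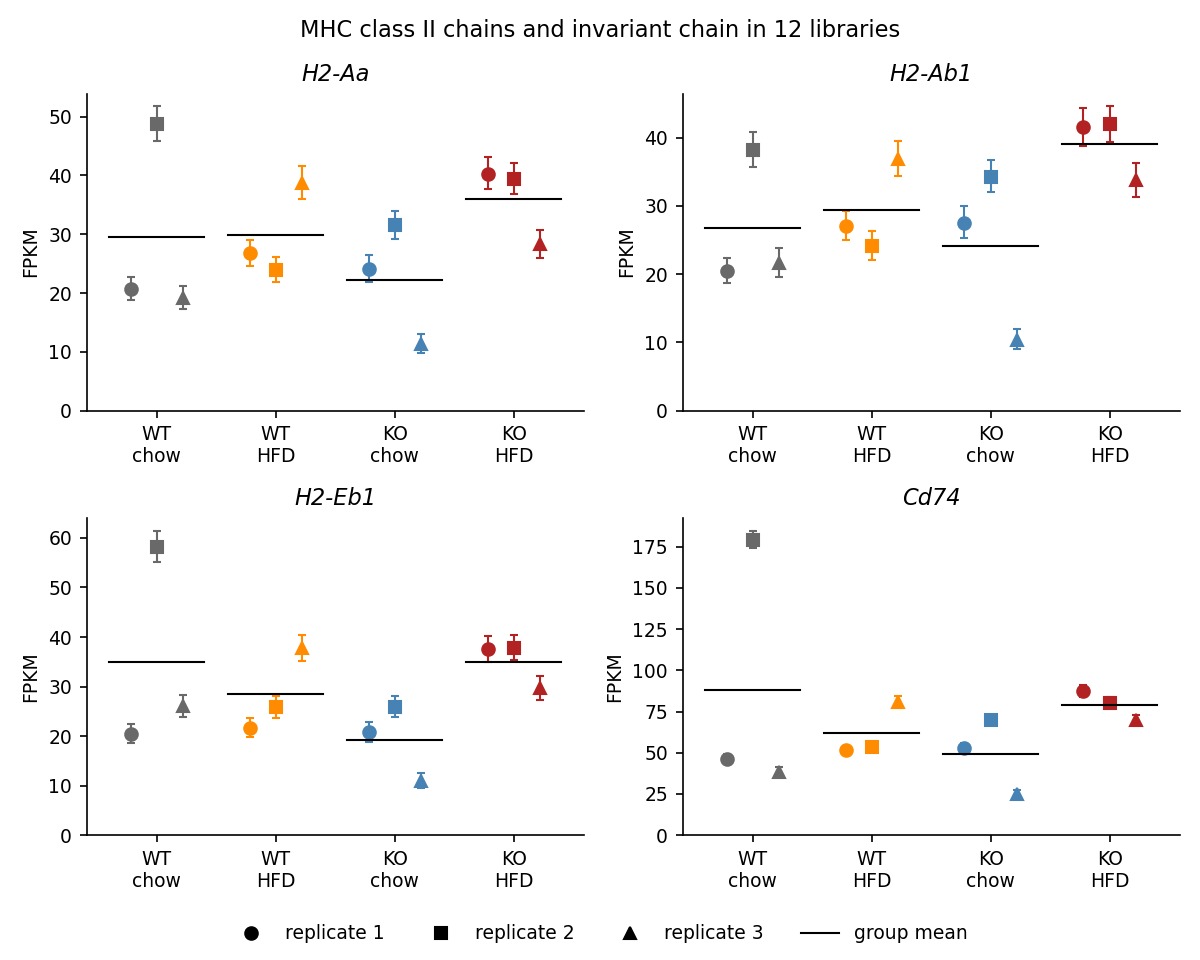
FPKM (vertical axis, linear from 0) of H2-Aa, H2-Ab1, H2-Eb1 and Cd74 in each of the 12 libraries by group, with symbols for the replicate, 95% Poisson intervals of the read count as bars and the group mean as a line. WT chow 2 is the highest library for H2-Aa, H2-Eb1 and Cd74, and KO chow 3 is the lowest of 12 for all 4 genes.

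The order of the group means was taken from highest to lowest, with the SD of each. For H2-Aa it was KO HFD at 36.0 ± 6.70 FPKM (SD, n = 3), WT HFD at 29.8 ± 7.84 FPKM, WT chow at 29.5 ± 16.7 FPKM and KO chow at 22.3 ± 10.2 FPKM. H2-Ab1 had the same order, from 39.1 ± 4.60 FPKM in KO HFD through 29.4 ± 6.66 FPKM in WT HFD and 26.8 ± 9.90 FPKM in WT chow to 24.1 ± 12.3 FPKM in KO chow. H2-Eb1 ran from 35.0 ± 4.68 FPKM in KO HFD and 34.9 ± 20.4 FPKM in WT chow to 28.4 ± 8.34 FPKM in WT HFD and 19.2 ± 7.56 FPKM in KO chow. In these genes each step between neighbouring groups was smaller than the larger SD of the 2 groups, apart from the step of H2-Ab1 from KO HFD to WT HFD and the step of H2-Eb1 from WT HFD to KO chow. Cd74 was 88.0 ± 79.1 FPKM in WT chow, 79.2 ± 8.90 FPKM in KO HFD, 61.7 ± 16.4 FPKM in WT HFD and 49.2 ± 22.5 FPKM in KO chow, and its first place rests on WT chow 2. For Cd74 the step from KO HFD to WT HFD was larger than either SD and the other steps were not. Sorting puts like means side by side, so these steps do not measure the gap between the highest and the lowest group. KO chow had the lowest mean of all 4 genes, and KO chow 3 alone held their lowest value.

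The 4 genes kept nearly fixed proportions to each other. H2-Ab1 stood at 0.921 to 1.20 times H2-Aa in the 10 libraries, and at 0.783 times in WT chow 2. H2-Eb1 stood at 0.809 to 1.08 times H2-Aa in the 10 libraries, and at 1.19 and 1.36 times in WT chow 2 and 3. Cd74 stood at 1.92 to 2.47 times H2-Aa in the 10 libraries and at 3.67 times in WT chow 2. Over the same 10 libraries the levels themselves spanned 3.56-fold for H2-Aa, 4.03-fold for H2-Ab1, 3.43-fold for H2-Eb1 and 3.48-fold for Cd74. The proportions therefore varied far less than the levels, and WT chow 2 had both the largest Cd74 excess and the lowest H2-Ab1 share.

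**Figure D2:**
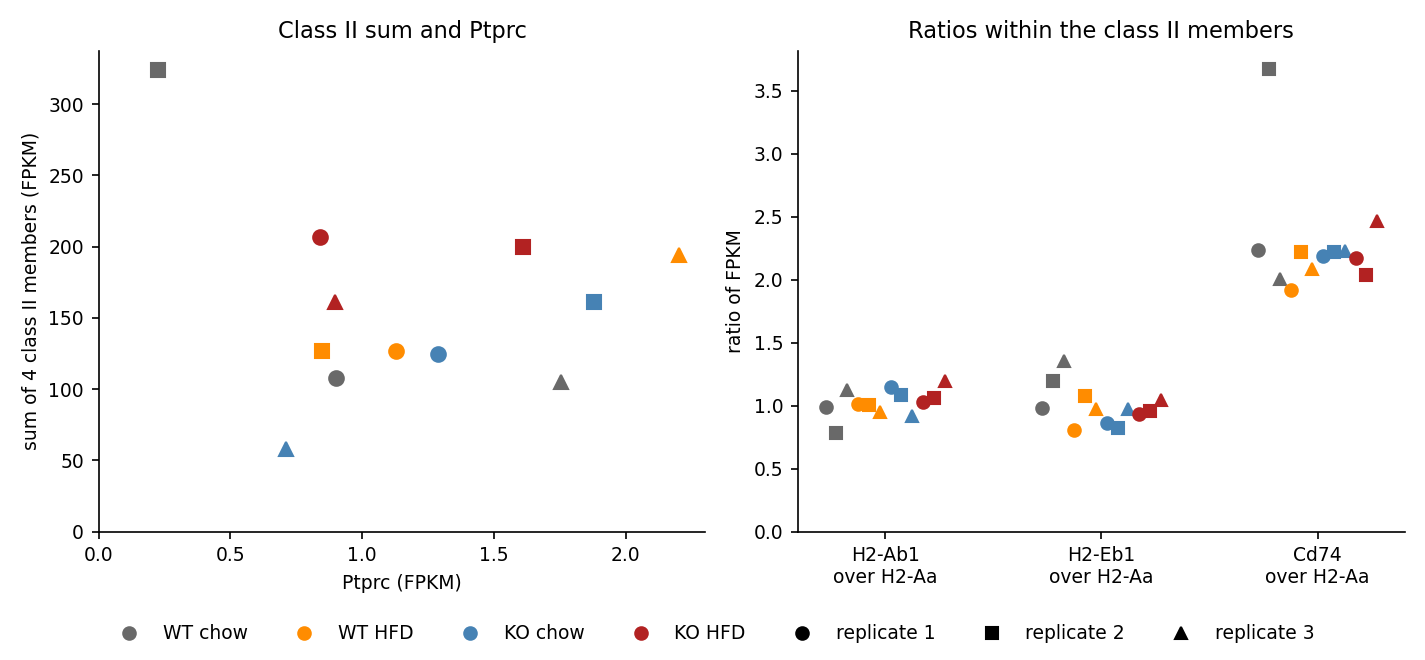
Left, the sum of H2-Aa, H2-Ab1, H2-Eb1 and Cd74 (FPKM) against Ptprc (FPKM), and right, the ratio of FPKM of H2-Ab1, H2-Eb1 and Cd74 to H2-Aa, each point being 1 of the 12 libraries with its group as colour and its replicate as symbol. WT chow 2 lies apart in both panels, with the lowest Ptprc beside the highest class II sum and a Cd74 to H2-Aa ratio of 3.67.

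Ciita, the coactivator of the class II genes, was close to the limit of detection. It read 0.217, 0.172 and 0.254 FPKM in WT chow, 0.209, 0.207 and 0.411 FPKM in WT HFD, 0.259, 0.440 and 0.158 FPKM in KO chow, and 0.304, 0.228 and 0.0755 FPKM in KO HFD, from 7 to 47 reads a library. The groups overlapped in every comparison. The summed FPKM of the 3 chains and Cd74 was 367 times Ciita in KO chow 2 and 2139 times in KO HFD 3. In KO HFD 3 Ciita had 7 reads, with a 95% Poisson interval of 0.0303 to 0.156 FPKM. With Ciita values this low and uncertain, whether the target genes and the regulator kept a fixed proportion was not tested. Ciita did not reach the mean of 0.5 FPKM needed for the main test.

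The leukocyte and lymphocyte members were lower by far than the class II chains and Cd74. Ptprc, the surface phosphatase CD45 carried by nearly all white blood cells, read 0.901, 0.225 and 1.75 FPKM in WT chow, 1.13, 0.849 and 2.20 FPKM in WT HFD, 1.29, 1.88 and 0.712 FPKM in KO chow, and 0.840, 1.61 and 0.896 FPKM in KO HFD. It rested on 22 to 201 reads, and the highest library was WT HFD 3 and the lowest WT chow 2. Its group means, 1.39 ± 0.715 FPKM in WT HFD, 1.29 ± 0.584 FPKM in KO chow, 1.12 ± 0.429 FPKM in KO HFD and 0.960 ± 0.766 FPKM in WT chow, each lay within 1 SD of the next. The class II sum was 81.3 to 246 times Ptprc in the 10 libraries. It was 60.0 times Ptprc in WT chow 3 and 1440 times in WT chow 2, the library in which the highest class II sum met the lowest Ptprc.

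The T cell genes were near the floor. Cd3e, a subunit of the CD3 complex that signals for the T cell receptor, read 0.303, 0.111 and 0.422 FPKM in WT chow, 0.218, 0.119 and 0.317 FPKM in WT HFD, 0.517, 0.206 and 0.399 FPKM in KO chow, and 0.230, 0.145 and 0.316 FPKM in KO HFD, from only 3 to 12 reads a library. All groups of Cd3e overlapped, and at this depth no difference was detectable. Cd8a, the alpha chain of the co-receptor of cytotoxic T cells and also present on some dendritic cells, read 0.122, 0.102 and 0.194 FPKM in WT chow, 0.134, 0 and 0.291 FPKM in WT HFD, 0.257, 0.440 and 0.448 FPKM in KO chow, and 0.0881, 0.250 and 0.579 FPKM in KO HFD. WT HFD 2 had 0 reads of Cd8a, which allows up to 0.0548 FPKM taken as the level of 3 reads there, while the two-sided 95% Poisson interval, the one plotted, ends at 0.0674 FPKM. The KO chow libraries, with 13 to 28 reads, were all above the WT chow libraries, with 6 to 10 reads. Cd8a did not reach the filter, and without a filter its adjusted p in limma was 0.379.

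Cd79a and Nkg7 mark other lymphocytes. Cd79a, a signalling chain of the B cell receptor, read 0.970, 3.50 and 0.333 FPKM in WT chow, 1.61, 0.981 and 0.429 FPKM in WT HFD, 0.510, 1.79 and 0.524 FPKM in KO chow, and 1.97, 1.40 and 0.894 FPKM in KO HFD, from 8 to 96 reads. Its groups overlapped throughout, with means of 1.60 ± 1.67 FPKM in WT chow, 1.42 ± 0.538 FPKM in KO HFD, 1.01 ± 0.593 FPKM in WT HFD and 0.942 ± 0.735 FPKM in KO chow, and the 10.5-fold span over 12 libraries was 4.59-fold without WT chow 2 and 3. Nkg7, a granule protein of NK and cytotoxic T cells, read 0.681, 1.03 and 0.414 FPKM in WT chow, 1.61, 0.782 and 0.907 FPKM in WT HFD, 0.423, 0.673 and 0.508 FPKM in KO chow, and 1.38, 0.951 and 1.48 FPKM in KO HFD, from 6 to 27 reads. All 3 KO HFD libraries were above all 3 KO chow libraries for Nkg7. Their means were 1.27 ± 0.283 and 0.535 ± 0.127 FPKM.

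**Figure D3:**
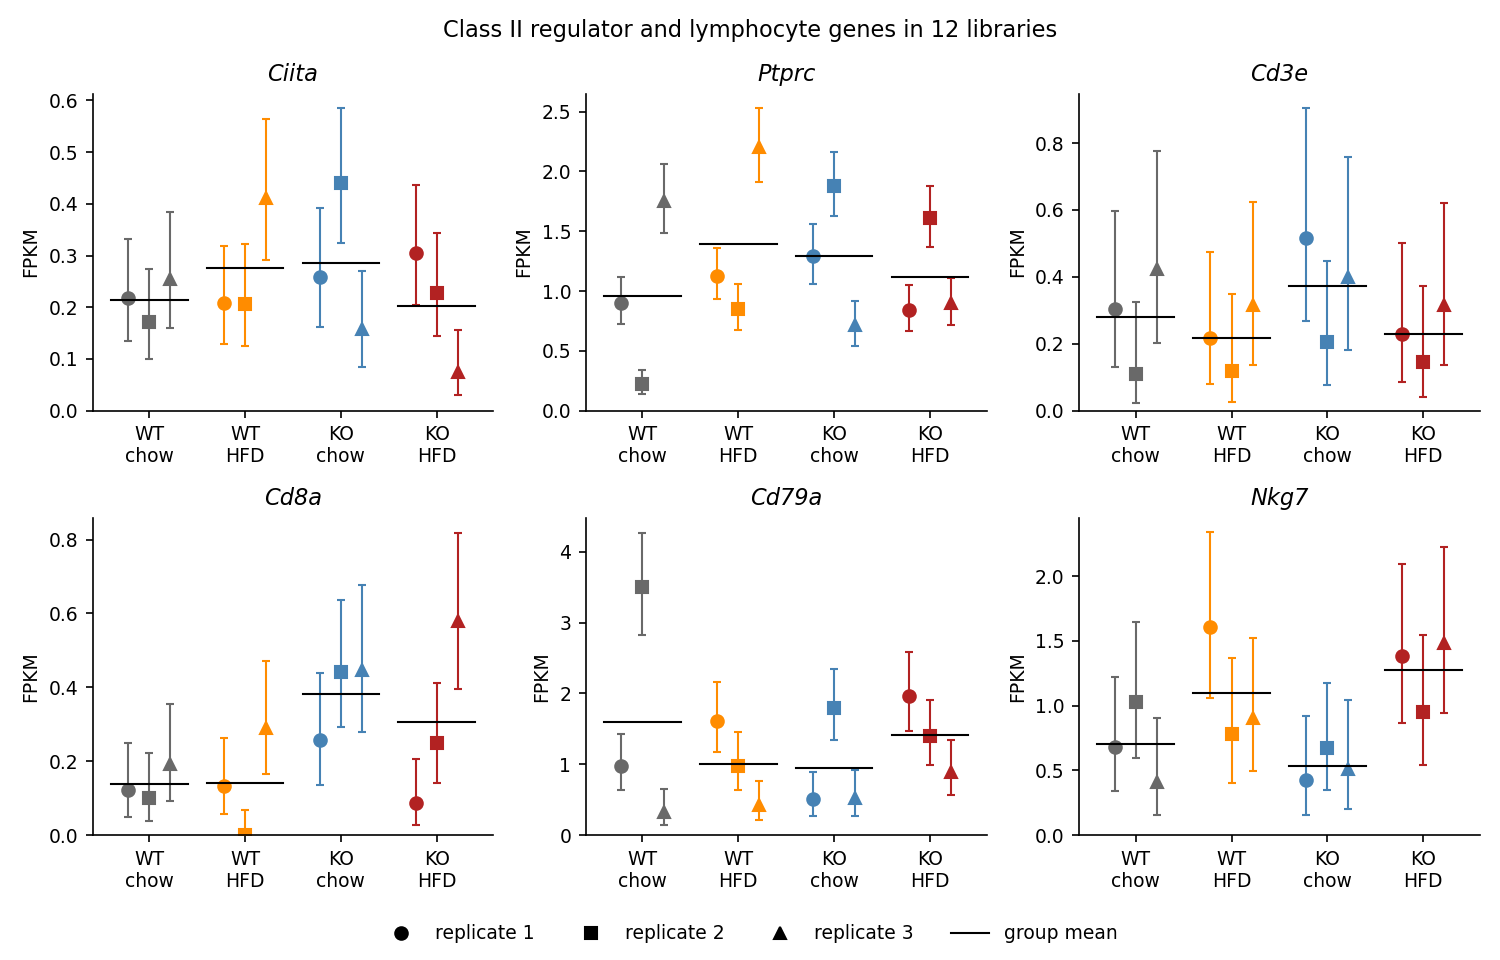
FPKM (vertical axis, linear from 0) of Ciita, Ptprc, Cd3e, Cd8a, Cd79a and Nkg7 in each of the 12 libraries by group, with symbols for the replicate, 95% Poisson intervals of the read count as bars and the group mean as a line. The intervals are wide for Cd3e, with 3 to 12 reads, and WT chow 2 is the lowest library for Ptprc and the highest for Cd79a.

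Tests were run with limma on log2(FPKM + 1) over the 12251 genes with a mean of at least 0.5 FPKM, among them 7 of the 10 members, and p-values were adjusted by Benjamini and Hochberg over all 12251. The members that could not enter were Ciita, Cd3e and Cd8a. A gene is called at an adjusted p under 0.05. A difference on this scale understates the change of genes near or below 1 FPKM. For any single gene, an exact permutation test of 3 libraries against 3 cannot give a two-sided p below 0.1.

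High-fat feeding against chow in the libraries labelled KO gave, with 12 libraries, the largest differences of class II between a pair of groups, none of them past the threshold. The mean of H2-Eb1 in KO HFD was 1.82 times that in KO chow, a log2 difference of 0.90 (SE 0.42, limma adjusted p = 0.649). H2-Aa differed by 0.76 (SE 0.43), H2-Ab1 by 0.82 (SE 0.41) and Cd74 by 0.79 (SE 0.55) on the log2 scale, with limma adjusted p of 0.667, 0.650 and 0.718. Nkg7 differed by 0.56 (SE 0.20, limma adjusted p = 0.649), Cd79a by 0.36 (SE 0.43, limma adjusted p = 0.864) and Ptprc by -0.10 (SE 0.33, limma adjusted p = 0.972). These class II values rest in large part on KO chow 3: without it H2-Aa stood at 0.36, H2-Ab1 at 0.33, Cd74 at 0.37 and H2-Eb1 at 0.57, while Nkg7 stood at 0.55. Of the 7 tested members 0 were called, while 0.155% of all tested genes were. At an unadjusted p under 0.05, 1 of the 7, Nkg7, would pass, against 7.54% of all genes. The median log2 difference of the 7 was 0.76, beside -0.06 over all genes tested. Among the 10 members, H2-Eb1 and Nkg7 had KO HFD wholly above KO chow, as had 9.98% of all genes tested, and 0 members had it wholly below, as had 21.6%.

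Neither group of that comparison includes WT chow 2 or 3, but their spread enters the error that all groups share. With the 10 libraries the same differences had smaller standard errors, 0.30 for H2-Eb1 and 0.17 for Nkg7, and limma adjusted p of 0.0856 and 0.0728. H2-Aa, H2-Ab1 and Cd74 then had limma adjusted p of 0.170, 0.173 and 0.155, and 0 of 7 were called, against 7.76% of all genes. At an unadjusted p under 0.05, 4 of the 7 would pass (H2-Aa, H2-Eb1, Cd74 and Nkg7), against 29.2% of all genes. With limma-voom on reads recovered from the FPKM, 0 of 7 were called, beside 0.098% of all genes. With limma's library weights 1 of 7 was called, H2-Eb1 at 0.85 with an adjusted p of 0.0393, beside 19.8% of all genes.

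**Figure D4:**
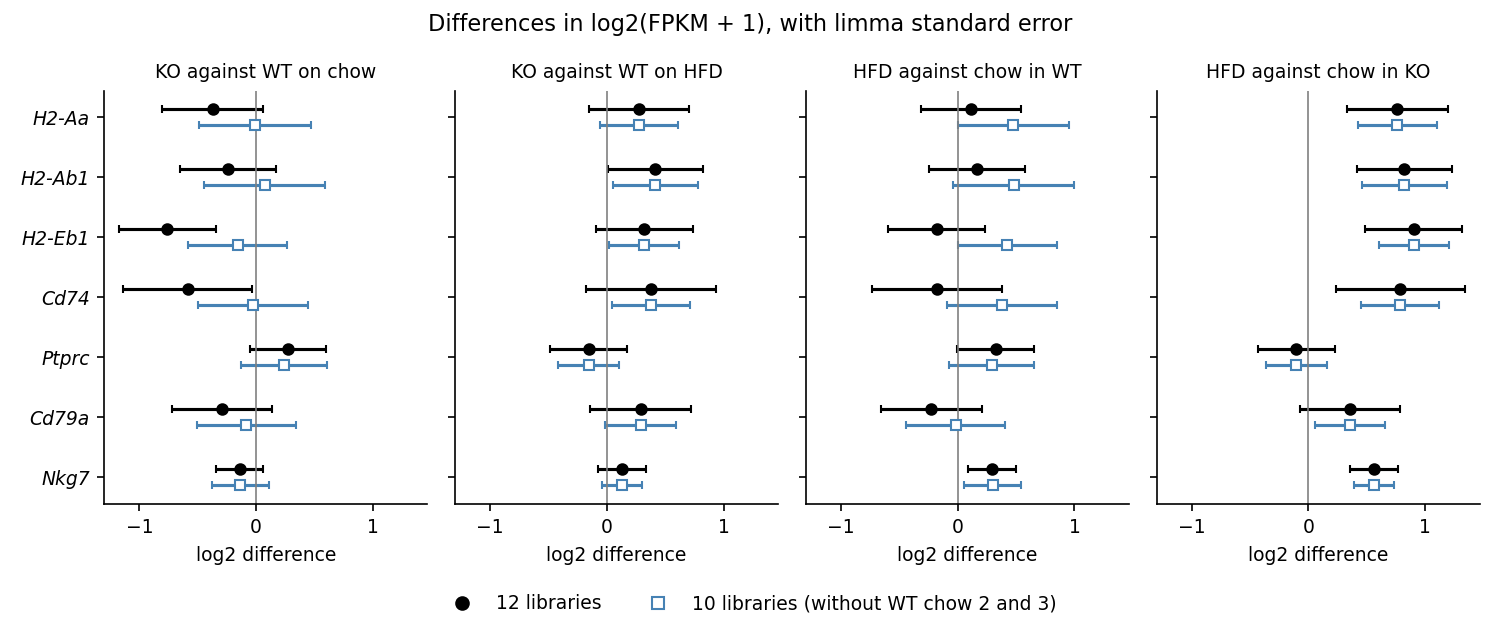
Differences in log2(FPKM + 1) (horizontal axis) of the 7 tested members in the 4 comparisons between pairs of groups, with limma's standard error as bars, for 12 libraries (filled circles) and for the 10 libraries without WT chow 2 and 3 (open squares). The class II genes lie between 0.76 and 0.90 for HFD against chow in KO, and their differences that use WT chow shift between the 2 sets of libraries.

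Knockout against wild type on high-fat feeding showed smaller differences. H2-Ab1 differed by 0.42 (SE 0.41) on the log2 scale, Cd74 by 0.38 (SE 0.55), H2-Eb1 by 0.32 (SE 0.42) and H2-Aa by 0.28 (SE 0.43). Cd79a differed by 0.29 (SE 0.43), Nkg7 by 0.13 (SE 0.20) and Ptprc by -0.16 (SE 0.33). All 7 had a limma adjusted p of 1, so 0 of 7 were called, beside 0.155% of all genes tested, and 0 of 7 with 10 libraries, beside 0.18%. At an unadjusted p under 0.05, 0 of 7 would pass with either set of libraries, against 1.27% of all genes with 12 and 12.5% with 10. With limma-voom 0 of 7 were called, beside 0.122% of all genes. Their median was 0.29, beside -0.03 over all genes. The groups of KO HFD and WT HFD overlapped in all 10 members, while KO HFD was wholly above in 7.37% and wholly below in 12.4% of all genes tested.

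Knockout against wild type on chow depended on WT chow 2 and 3. With 12 libraries H2-Eb1 differed by -0.76 (SE 0.42, limma adjusted p = 0.301), Cd74 by -0.59 (SE 0.55, limma adjusted p = 0.527), H2-Aa by -0.37 (SE 0.43) and H2-Ab1 by -0.24 (SE 0.41) on the log2 scale. With 10 libraries the same 4 stood at -0.16, -0.03, -0.01 and 0.07, each with a limma adjusted p of 1. Ptprc differed by 0.27 (SE 0.33), Cd79a by -0.29 (SE 0.43) and Nkg7 by -0.14 (SE 0.20) with 12 libraries. Called were 0 of 7 members, beside 0% of all genes, and 0 of 7 with 10 libraries, beside 0.00816%. At an unadjusted p under 0.05, 0 of 7 would pass, against 21.1% of all genes with 12 libraries and 2.8% with 10. Limma-voom also called 0 of 7, beside 0% of all genes. Cd8a was the only member of 10 whose groups did not overlap here, and KO chow was the higher, as in 12.4% of all genes tested, while KO chow was wholly the lower in 4.43%.

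High-fat feeding against chow in wild type also depended on them. H2-Aa and H2-Ab1 differed by 0.11 and 0.16 on the log2 scale and H2-Eb1 and Cd74 by -0.18 each with 12 libraries, while with 10 libraries all 4 were between 0.38 and 0.48. Ptprc differed by 0.33 (SE 0.33), Nkg7 by 0.29 (SE 0.20) and Cd79a by -0.22 (SE 0.43). The limma adjusted p of the 7 ran from 0.479 to 0.91 with 12 libraries and was 1 for all with 10. Called were 0 of 7, beside 0% of all genes, and 0 of 7 with 10 libraries, beside 0.00816%. Without adjustment, at p under 0.05, 0 of 7 would pass, against 14.7% of all genes with 12 libraries and 2.38% with 10. Limma-voom called 0 of 7 as well, beside 0% of all genes. The groups overlapped in all 10 members, while WT HFD was wholly above in 6.82% and wholly below in 4.35% of all genes tested.

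The diet difference was not shown to differ between the genotypes. The interaction, the HFD difference in KO minus that in WT, was 1.08 for H2-Eb1, 0.97 for Cd74, 0.66 for H2-Ab1 and 0.65 for H2-Aa on the log2 scale with 12 libraries. With 10 libraries it was 0.48, 0.41, 0.34 and 0.28. Limma adjusted p ran from 0.345 to 0.605 over the 7 members with 12 libraries and from 0.751 to 0.871 with 10. Called were 0 of 7, beside 0.122% of all genes with 12 libraries and 0.0816% with 10. None of the 7 would pass at an unadjusted p under 0.05, beside 16.6% of all genes with 12 libraries and 10.2% with 10. By limma-voom 0 of 7 were called, beside 0% of all genes.

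The other genes of the class II pathway, a list of 15 that excludes the members, were then read. In it are the peptide exchange factors H2-DMa and H2-DMb1, the proteases that cut the invariant chain and antigen, the RFX promoter factors and the costimulators. In each of the 5 contrasts 0 of the 11 tested were called, beside 0% to 0.155% of all genes tested. Lgmn, a lysosomal protease, and Ifi30, a thiol reductase that unfolds antigen, had the highest levels. Lgmn read 24.3, 20.8 and 20.9 FPKM in KO chow and 30.1, 30.2 and 24.2 FPKM in KO HFD, which overlapped by a narrow margin. Ifi30 read 11.1, 16.6 and 16.7 FPKM in KO chow and 18.2, 27.6 and 22.3 FPKM in KO HFD. Its KO HFD values were wholly above, as in 9.98% of all genes tested. Their log2 differences were 0.34 (SE 0.27) and 0.59 (SE 0.47), each with a limma adjusted p of 0.765. Between KO HFD and KO chow, 9 of the 11 lay above 0, with a median of 0.34 beside -0.06 over all genes tested.

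Class I, which shows peptides made inside the cell and is carried by nearly all cells, was far more abundant. The 15 class I genes summed to 3270 to 4897 FPKM in the 10 libraries. The class I light chain B2m ranged from 1789 to 3165 FPKM in these, with 482 FPKM in WT chow 3 and 968 FPKM in WT chow 2. H2-K1, a classical heavy chain, ranged from 690.0 to 1107 FPKM, with 185.0 FPKM in WT chow 3 and 783 FPKM in WT chow 2. WT chow 2, the library with the highest Cd74, thus had the second lowest B2m. The class I genes did not go 1 way in WT chow 2. H2-T23, at 198.5 FPKM, and Tapbp, at 75.4 FPKM, were highest there, while Erap1, at 5.37 FPKM, was second lowest. In each of the 5 contrasts 0 of the 15 were called, beside 0% to 0.155% of all genes tested. Between KO HFD and KO chow, H2-K1 differed by -0.12 (SE 0.59, limma adjusted p = 0.99) and B2m by 0.22 (SE 0.63, limma adjusted p = 0.968). In that comparison 11 of the 15 lay above 0, with a median log2 difference of 0.225 beside -0.06 over all genes tested. The differences ran from -0.635 (SE 0.404) for Erap1 to 0.973 (SE 0.601) for Psmb8.

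Interferon gamma is the cytokine known to induce Ciita and so class II. Its 14 listed genes, from receptor to targets, summed to 76.0 to 118 FPKM in KO chow and 67.3 to 138 FPKM in KO HFD. Of the 13 tested, 0 were called in any of the 5 contrasts, beside 0% to 0.155% of all genes tested. Irf1, an early target, read 8.40, 21.8 and 10.3 FPKM in KO chow and 18.0, 16.1 and 8.24 FPKM in KO HFD, which overlapped. Jak1, the receptor's kinase, read 21.4, 21.7 and 15.9 FPKM in KO chow and 13.7, 15.6 and 15.9 FPKM in KO HFD, a log2 difference of -0.35 (SE 0.27, limma adjusted p = 0.747). That was the lowest of the 13, and the highest was Gbp2 at 0.936 (SE 0.668). Between these groups 9 of the 13 lay above 0, with a median of 0.131 beside -0.06 over all genes tested.

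Lymphocyte lists wider than the members gave 0 calls with 12 libraries in any of the 5 contrasts, beside 0% to 0.155% of all genes tested. T cell genes summed to 16.8 to 18.9 FPKM in KO chow and to 24.7 to 27.9 FPKM in KO HFD, and the listed gene of highest mean was Zap70, a kinase of T cell receptor signalling. Zap70 read 10.4, 0.426 and 0.108 FPKM in WT chow, 8.20, 16.1 and 11.0 FPKM in WT HFD, 5.96, 6.10 and 8.29 FPKM in KO chow, and 14.2, 16.3 and 15.4 FPKM in KO HFD. It was lowest in WT chow 2 and 3, and far above Cd3e in the other 10. Without Zap70 the other 19 genes summed to 12.9, 11.7 and 8.54 FPKM in KO chow and 10.5, 10.4 and 12.5 FPKM in KO HFD, which overlapped, and for HFD against chow 5 of the 8 tested T cell genes lay above 0, with a median of 0.03. The log2 difference of Zap70 for HFD against chow in KO was 1.08, with a limma adjusted p of 0.692 with 12 libraries and 0.034 with 10. In that comparison 7.76% of all genes were called with 10 libraries. Thy1, a surface protein of T cells and of some stromal cells, stood at 0.795 to 2.34 FPKM except in WT HFD 3, at 8.95 FPKM.

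Among NK and cytotoxic genes, Ccl5, a chemokine of activated T and NK cells, read 1.67, 2.43 and 3.34 FPKM in KO chow and 6.85, 5.94 and 3.82 FPKM in KO HFD. Every KO HFD value was the higher, as in 9.98% of all genes tested. The log2 difference was 0.91 (SE 0.36), and the limma adjusted p was 0.649 with 12 libraries and 0.0441 with 10. In that comparison 7.76% of all genes were called with 10 libraries. The granzyme Gzma read 0.917, 0.617 and 0.725 FPKM in KO chow and 2.45, 0.475 and 0.0645 FPKM in KO HFD, a log2 difference of 0.01 (SE 0.36, limma adjusted p = 1). All 3 tested genes of the list, the chemokine Xcl1 being the other at 0.34, lay above 0, and 0 were called with 12 libraries. B cell and plasma cell transcripts were led by Igkc, the kappa light chain constant region, at 17.8 to 84.9 FPKM, and by Ighm, the IgM heavy chain, at 2.86 to 14.8 FPKM. Igkc was highest in WT chow 2, as Cd79a was. The 2 genes parted in WT chow 3, where Igkc was 79.0 FPKM and Cd79a had its lowest value, 0.333 FPKM.

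In the leukocyte signalling list, 14 of 15 genes lay above 0 for HFD against chow in KO, with 0 called beside 0.155% of all genes tested. Their median log2 difference was 0.17, beside -0.06 over all genes tested. KO chow 3 had the lowest sum of this list among the KO libraries, 48.3 FPKM, and its part in these directions was not tested. Cd52, a small surface glycoprotein of lymphocytes and monocytes, read 4.82, 11.1 and 6.19 FPKM in KO chow and 19.3, 21.3 and 13.4 FPKM in KO HFD. KO HFD was wholly above KO chow for Cd52, as in 9.98% of all genes tested. The log2 difference was 1.23 (SE 0.49, limma adjusted p = 0.649 with 12 libraries and 0.0622 with 10). Lcp1, a leukocyte actin bundler, read 26.0, 25.2 and 20.0 FPKM in KO chow and 16.2, 22.4 and 19.4 FPKM in KO HFD, a log2 difference of -0.29 (SE 0.46, limma adjusted p = 0.912).

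Markers of myeloid cells that can carry class II were read beside these values. The 15 Kupffer cell and macrophage genes summed to 122 to 167 FPKM in KO chow and 191 to 311 FPKM in KO HFD, with no overlap. Of the 13 tested genes 10 lay above 0 and 0 were called, beside 0.155% of all genes tested. Within KO HFD the order of libraries was not that of class II: the Kupffer sum was 191, 241 and 311 FPKM where the class II sum was 207, 199.6 and 161 FPKM. Marco and Mpeg1, both macrophage genes, differed by -0.64 (SE 1.41) and -0.46 (SE 0.66) on the log2 scale, each less than its SE. Single libraries weighed on both: Marco was highest in KO HFD 3, at 42.3 FPKM, and Mpeg1 in KO chow 2, at 44.2 FPKM. Lyz2, the macrophage lysozyme, read 29.9, 24.9 and 18.7 FPKM in KO chow and 42.5, 69.3 and 62.9 FPKM in KO HFD. C1qa, a complement chain made by macrophages, read 18.1, 18.5 and 21.7 FPKM in KO chow and 31.7, 32.1 and 48.0 FPKM in KO HFD, and 96.4 FPKM in WT chow 2, where Cd74 was also highest. The macrophage genes did not go 1 way in WT chow 2. C1qb was highest there too, at 71.0 FPKM, while Mpeg1 was lowest there, at 2.71 FPKM. The 12 dendritic cell genes summed to 3.79 to 5.96 FPKM in KO chow and 3.83 to 6.38 FPKM in KO HFD, with Irf8 at 1.65 to 2.27 and 1.31 to 2.53 FPKM. The 10 neutrophil genes summed to 5.70 to 21.6 and 11.0 to 21.7 FPKM, led by S100a9. The part of these cells in the class II levels was not tested.

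Transcripts of other tissues moved with the KO HFD label. The 10 genes of pancreas and gut summed to 42.3 to 77.8 FPKM in KO HFD, 0.357 to 0.955 FPKM in KO chow, 0.81 to 1.11 FPKM in WT HFD and 1.23 to 7.28 FPKM in WT chow. The trypsin gene Prss2 was at 11.0, 7.36 and 7.44 FPKM in KO HFD and at 0 in the other 9 libraries. All 3 KO HFD libraries carry these transcripts, and their part in the H2-Eb1 and Nkg7 values of that group was not tested. In WT chow 3 the 8 hepatocyte genes summed to 30.4 FPKM, against 32923 to 63303 FPKM in the 10 libraries, while the 8 brown fat and adipocyte genes summed to 13541 FPKM, and their part in the class II values of that library was not tested.

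Over the 10 immune lists together, 0 of 91 tested genes were called in each of the 5 contrasts with 12 libraries, beside 0% to 0.155% of all genes. Without adjustment, at p under 0.05, 5 would pass for KO against WT on chow, 4 for KO against WT on HFD, 5 for HFD against chow in WT, 5 for HFD against chow in KO and 2 for the interaction, beside 21.1%, 1.27%, 14.7%, 7.54% and 16.6% of all genes. With 10 libraries 2 of the 91 were called, Zap70 and Ccl5, both for HFD against chow in KO, where 7.76% of all genes were called. Without adjustment 20 of the 91 would pass there, beside 29.2% of all genes. In that comparison 70 of the 91 lay above 0, with a median of 0.20 beside -0.06 over all genes. The share of all genes above 0 is not given here. KO chow 3 had the lowest sum of the KO chow libraries in each immune list except class I, B cell, and NK and cytotoxic genes. Its part in these shared directions was not tested.

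Finally, genes with the pattern most like the members were listed by Pearson's r of log2(FPKM + 1), as a description, since the points share the makeup of each library. Over 10 libraries the 5 protein-coding genes nearest to the mean of H2-Aa, H2-Ab1, H2-Eb1 and Cd74 were Ctss (r = 0.892), Rab3il1 (0.867), S100a11 (0.865), Tssc1 (0.863) and Pld4 (0.857), of 10953 ranked. Ctss is the cathepsin that trims the invariant chain. Over 12 libraries they were Fcer1g (0.885), Rab3il1 (0.883), Grn (0.871), Pld4 (0.871) and Fkbp3 (0.865), so Rab3il1 and Pld4 were in both lists. Fcer1g, the Fc receptor gamma chain of myeloid and NK cells, read 6.71, 6.72 and 3.59 FPKM in KO chow and 15.5, 13.4 and 15.1 FPKM in KO HFD, and 25.5 FPKM in WT chow 2.

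For Ptprc the nearest 5 over 10 libraries included Parp14 (r = 0.917), Fam124a (0.912), Myo1f (0.91) and Pqlc3 (0.908). Over 12 libraries they were Phka2 (0.9), F2r (0.893), Cygb (0.889), Pdgfra (0.884) and Myh10 (0.883), with no gene in both lists. Cygb and Pdgfra are known from hepatic stellate cells and other stromal cells. Ptprc itself had r = -0.045 with the class II mean over 12 libraries and 0.553 over 10, so the 2 did not share a pattern once WT chow 2 and 3 were counted. The T cell gene Cd3e had r = -0.586 with the class II mean over 12 libraries and -0.435 over 10, from the 3 to 12 reads given above.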

How the data were processed

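RNA of 12 samples labelled as mouse liver was sequenced, and the deposited table gives FPKM per gene, per the file headers, with gene length and coordinates. CASAVA, TopHat, STAR, HTSeq 0.6.1 and DESeq2 (version 2) and the builds GRCm38 and mm10 are named in the submitters' processing notes. Which aligner made the table, its annotation release and its strand setting remain details not given in the sources used here. The authors' FPKM values times gene length gave whole reads (tolerance 0.1 read) for 100% of the nonzero values of low to moderate count. The size of 1 read was estimated from these same values. Larger values were rounded without this check. The libraries had 15705196 to 20311766 reads. Poisson intervals (95%) and the floor of 3 reads cover counting error only, since reads are not independent molecules. From gene IDs, 27 symbols deposited as dates were restored, and 0 value columns were left unmapped.

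Group means were fitted in limma 3.58.1 (R 4.3.3) with a trend on log2(FPKM + 1), over 12 libraries and 5 contrasts, for genes with a mean of at least 0.5 FPKM. Labels give no donor for the replicates beyond their number, so p-values measure the spread between these samples. The procedure was run on simulated data, with the same count dispersion for all genes and changes only in well-counted genes. That run checks the code and does not measure error rates for the members. Alternatives were a pseudocount of 0.1, no filter, a mean of at least 2 FPKM, TPM and median-of-ratios scaling, only the groups compared, a replicate block, library weights and each library left out; added after the data were seen were the fit without WT chow 2 and 3 and limma-voom on the recovered reads. The members and the 13 lists (172 genes, 171 matched, 114 tested) were chosen with earlier results of these data known. Named were all members, in each list the genes past the threshold (at most 4) and the 2 of highest mean, and the 5 genes most like class II and Ptprc; Xcl1, Marco, Mpeg1 and others named outside this rule were chosen after their values were seen. Sequences are RefSeq's. One gene that the rule on likeness to Ptprc would name is not reported here.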

Additional observations from a re-analysis of the deposited data

How the results depend on the processing

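Of 763 values of members under the alternatives, 741 kept their direction and side of the threshold, 21 turned sign and 1 became called (H2-Eb1 with library weights, HFD against chow in KO). Many of the 741 could not turn sign. A change of filter, a fit of only the groups compared, a replicate block or a left-out library of another group leaves the log2 difference as it was. The count of 741 is therefore no measure of robustness. None of the 21 was called, and the cause was not tested. Some turned with 1 library left out, and their log2 differences then ranged as follows. In KO against WT on chow, H2-Aa ranged from -0.67 to 0.044, H2-Ab1 from -0.56 to 0.25, Cd74 from -0.99 to 0.10, Ptprc from -0.029 to 0.56 and Cd79a from -0.68 to 0.20, with the sign turned without WT chow 2 in all 5 and also without KO chow 3 in H2-Aa and H2-Ab1. In KO against WT on HFD, Ptprc ranged from -0.32 to 0.074. In HFD against chow in WT, H2-Aa ranged from -0.12 to 0.53, H2-Ab1 from -0.0062 to 0.44, H2-Eb1 from -0.48 to 0.26, Cd74 from -0.59 to 0.51 and Cd79a from -0.61 to 0.27. In HFD against chow in KO, Ptprc ranged from -0.30 to 0.077. With 10 libraries H2-Ab1 turned to 0.072 in KO against WT on chow, and H2-Eb1 to 0.42 and Cd74 to 0.38 in HFD against chow in WT. With library weights Ptprc turned to 0.19 in KO against WT on HFD and to 0.031 in HFD against chow in KO. Members called were 0 under each alternative, each library left out included (0 to 0), except 1 with library weights for HFD against chow in KO.

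Genes called for KO against WT on chow went from 0 to 4 with no filter and to 1 with 10 libraries, and ranged from 0 to 2981 with a library left out (2981 without WT chow 1). For KO against WT on HFD, 19 became 3 at a mean of 2 FPKM and 33 with weights, and 16 to 20 with a library left out. For HFD against chow in WT, 0 became 1 with 10 libraries, and 0 to 2435 with a library left out (2435 without WT chow 1). For HFD against chow in KO, 19 became 31 with no filter, 3 at a mean of 2 FPKM, 2420 with weights, 951 with 10 libraries and 12 with limma-voom, and 14 to 24 with a library left out. For the interaction, 15 became 6 with a pseudocount of 0.1, 25 with no filter, 1 at a mean of 2 FPKM, 7 with weights and 0 with limma-voom, and 5 to 2265 with a library left out (2265 without WT chow 1). With the replicate number as a block, the interaction gave 4, KO against WT on HFD 18 and HFD against chow in KO 17. Libraries of the same number did not deviate together (r from -0.50 to 0.13 over 18 pairs), and 2 of 12 correlated best with their own number. No pairing by number was seen. The check cannot exclude one, since deviations from a mean of 3 libraries are not independent. With TPM the median log2 difference over all genes was 0.25 in KO against WT on chow, -0.13 for KO against WT on HFD, 0.12 for HFD against chow in WT, -0.23 for HFD against chow in KO and -0.37 for the interaction. The 10-library fit and limma-voom were chosen after the data were seen. At 3 to 47 reads a library, Cd3e and Ciita allow no small difference to be seen.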
